A study of Homo sapiens with 6 samples.

Results

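The nuclear-encoded subunits of the respiratory chain and ATP synthase were examined in neuroblastoma cells with and without induced MYCN. The 86 genes were selected by a symbol rule that uses no measured value, from 60651 gene identifiers, although the group was proposed with earlier results of these data known. They comprised 37 subunit genes of complex I, 4 of complex II, 9 of complex III, 17 of complex IV and 19 of complex V. NDUFA4 was placed with complex IV, where its protein belongs. Of the 86 genes, 83 had at least 10 counts in at least 3 libraries and were tested, and COX4I2, COX6A2 and COX7B2 did not pass this filter.

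Complexes I to IV sit in the inner mitochondrial membrane, pass electrons from NADH and succinate to oxygen and, except for complex II, pump protons as they do so. Complex V, the ATP synthase, lets the protons flow back and makes ATP. The mitochondrial genome encodes a small set of catalytic subunits of complexes I, III, IV and V, while all other subunits, and all of complex II, are nuclear genes whose proteins are imported. Proteins of the MYC family are known to raise nuclear genes of mitochondrial biogenesis in several cell types.

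The cells were labelled SK-N-AS, an established human neuroblastoma line, and carried a tetracycline repressor construct and a MYCN gene that tetracycline switches on. Single clones were kept under G418 and blasticidin in both groups, so the results describe a clonal model. The 3 control libraries, which the sample titles call ETOH at 120 h, were labelled as controls, with no treatment spelled out, and the 3 MYCN-induced libraries (Tet) came from cells given tetracycline for 5 days (120 h). No library came from cells given tetracycline without the inducible MYCN gene, so effects of MYCN and of tetracycline itself cannot be told apart. After enzymatic removal of ribosomal RNA, total RNA was sequenced and read pairs were counted per gene.

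The libraries held between 64500589 and 102249336 counted pairs. MYCN, the check of the induction, had 30.3, 35.5 and 32.4 CPM (counts scaled to a common library size) in the controls and 211, 221 and 199 CPM in the induced libraries, and rose by 2.68 on the log2 scale (SE 0.09, edgeR adjusted p = 4.155e-05). Counts of the transgene and of the endogenous gene cannot be told apart. Of the adrenergic neuroblastoma markers, HAND2 lay between 349 and 559 CPM and GATA3 between 99.9 and 144 CPM, with the groups overlapping for both. Of the mesenchymal markers, 5 of 6 were tested, and 4 of these had log2 fold changes above 0. Their log2 fold changes had a median of 0.20 and a highest value of 0.72. FN1 alone passed the edgeR test and was the only one that fell (log2 fold change -0.71), where DESeq2 called 1 higher and 1 lower. VIM lay between 360 and 475 CPM, and CD44 had 0 counts in every library. The identity of the line rests on its label and was not checked here beyond these markers. The markers of other cell types stayed low in both groups, with PTPRC at most at 2.07 CPM, EPCAM at most at 0.593 CPM, ALB at most at 0.276 CPM and PECAM1 at most at 0.115 CPM. Induced replicate 3 was the most distant library, with a score of 69.1 on the leading principal component. The other induced libraries scored 14.4 and 13.1, and control replicates 1, 2 and 3 scored -40.3, -30.4 and -25.9. The call on FN1 was lost without any library other than induced replicate 3.

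Promoters of 68 of the 86 genes were found in a RefSeq table that gives 250 bases before and 50 bases after each start on GRCh38.p14. Both strands were searched for CGCATGCG, the motif of NRF1, CCGGAAG, the motif of ETS factors such as GABPA, AAGATGGCG, the motif of YY1, and CACGTG, the E-box bound by MYC family proteins. None of these motifs contains another. CGCATGCG was in 11 of the 68 promoters (16.2%, against 2.46% of all 27305 promoters), and AAGATGGCG was in 9 (13.2%, against 2.14%). CCGGAAG was in 21 (30.9%, against 12.2%). CACGTG was in 7 (10.3%, against 8.77%), a share close to that of all promoters. A match describes letters in this window and says nothing about binding.

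The following windows run from 150 bases before to 20 bases after the annotated start, 5′ to 3′, with matches to these motifs in capitals. They are shown because NDUFA6 was the only subunit gene past the test, NDUFS6 and COX5B had the highest fold changes of complexes I and IV, NDUFA11 holds an E-box, and SDHD holds both CGCATGCG and CCGGAAG (the latter on the opposite strand, read here as CTTCCGG). NDUFA6 has no capitals because its only match, AAGATGGCG, starts 26 bases after the start.
NDUFA6 (chr22:42090753-42090922, minus strand): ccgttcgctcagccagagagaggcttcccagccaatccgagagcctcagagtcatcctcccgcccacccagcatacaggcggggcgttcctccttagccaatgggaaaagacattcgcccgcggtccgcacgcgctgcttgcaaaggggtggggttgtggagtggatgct
NDUFS6 (chr5:1801257-1801426, plus strand): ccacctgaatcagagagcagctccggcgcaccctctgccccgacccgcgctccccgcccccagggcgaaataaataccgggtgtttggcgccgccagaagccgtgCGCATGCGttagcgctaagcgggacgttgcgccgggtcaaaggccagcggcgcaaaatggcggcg
NDUFA11 (chr19:5903771-5903940, minus strand): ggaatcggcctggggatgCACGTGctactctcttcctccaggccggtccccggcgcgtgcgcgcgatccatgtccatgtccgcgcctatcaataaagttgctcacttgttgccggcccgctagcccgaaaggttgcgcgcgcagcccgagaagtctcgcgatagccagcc
SDHD (chr11:112086723-112086892, plus strand): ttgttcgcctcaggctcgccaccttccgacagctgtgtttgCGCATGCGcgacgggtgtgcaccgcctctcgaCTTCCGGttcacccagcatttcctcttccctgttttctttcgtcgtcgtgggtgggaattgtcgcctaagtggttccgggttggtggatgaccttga
COX5B (chr2:97645912-97646081, plus strand): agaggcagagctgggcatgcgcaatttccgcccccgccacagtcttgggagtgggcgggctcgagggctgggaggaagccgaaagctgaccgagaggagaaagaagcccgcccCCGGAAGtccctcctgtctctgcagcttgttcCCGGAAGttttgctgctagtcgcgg

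The 83 tested genes spanned a wide range of levels, compared here in TPM, which scales counts to exon length and library size. Exon length was the union of all annotated exons, so genes with long rare exons have understated TPM. In complex I the highest gene was NDUFS5, a small accessory subunit, with 432 ± 21.0 TPM in the controls (SD, n = 3), and the next, NDUFA1, reached 127 ± 6.10 TPM. The lowest in complex I was NDUFS7, an iron-sulfur core subunit, with 1.10 ± 0.310 TPM, and 51.4% of its exon bases are shared with another gene. In complex III, UQCRH, the hinge protein, had 211 ± 5.76 TPM, against 37.5 ± 1.35 TPM for CYC1, cytochrome c1, which came next. In complex V, ATP5F1B, the catalytic beta subunit, had 191 ± 15.0 TPM and ATP5MK 166 ± 8.63 TPM. Subunits of 1 complex therefore differed in RNA level, and the highest exceeded the median of its complex by 23.6 times in complex I, 2.97 times in complex II, 10.1 times in complex III, 3.11 times in complex IV and 5.59 times in complex V. In complex IV the 2 highest genes, COX6B1 with 130 ± 12.7 TPM and COX7C with 127 ± 6.38 TPM, did not differ beyond their spread.

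**Figure D1:**
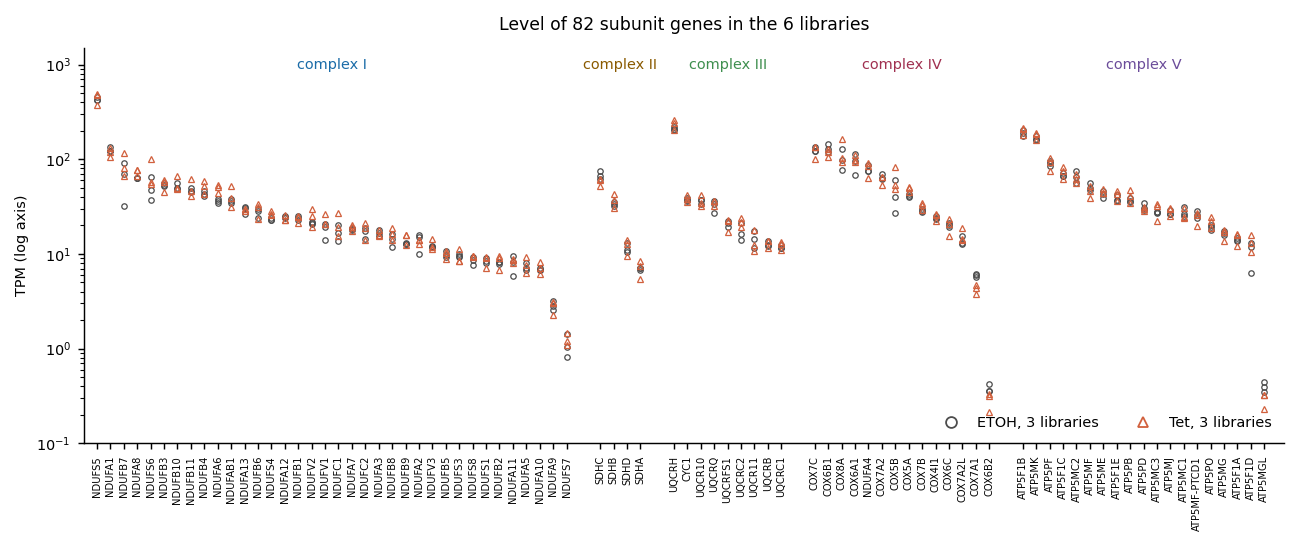
TPM (log axis) of 82 of the 83 tested subunit genes in the 3 ETOH libraries (circles) and the 3 Tet libraries (triangles), ordered by mean level within each complex. NDUFS5, UQCRH and ATP5F1B lead complexes I, III and V, and the ETOH and Tet points overlap for most genes.

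The levels of the same genes were nearly the same in both conditions. Over the 83 genes, the log2 mean TPM of the controls and of the induced libraries had a Pearson r of 0.995. It is a description across genes that share libraries and gene lengths. Levels differed far more between genes than between conditions, so this r cannot show that induction had no effect. The normalized level of 40 genes varied by under 1.25-fold over all 6 libraries, and that of 4 genes by at least 2-fold. Summed over all members, the controls held 3617, 3581 and 3682 TPM and the induced libraries 3975, 4185 and 3361 TPM. Complex I summed to 1386 ± 61.6 TPM in the controls and 1506 ± 181 TPM after induction, and complex IV to 773 ± 35.4 and 812 ± 95.6 TPM. Complex V summed to 952 ± 49.0 and 983 ± 105 TPM, complex III to 394 ± 3.60 and 426 ± 46.1 TPM, and complex II to 120 ± 10.4 and 114 ± 14.2 TPM. In TPM, induced replicate 3 gave the lowest sum of all 6 libraries in each of the 5 complexes. In TMM-normalized CPM it did so only in complex II, and over all members it held 4773 CPM, against 4357 to 4681 CPM in the controls and 4798 and 4621 CPM in the other induced libraries. On the TPM scale the difference between group means was smaller than the SD of the induced libraries in every complex.

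In each isoform family the general form was the main one. COX4I1, the general form of subunit 4, lay between 70.0 and 75.0 CPM, whereas COX4I2, the lung form, had 0 to 4 counts per library. COX6A2, the heart and muscle form, had 1 count in a single library and 0 in the other 5, and COX7B2, a testis form, had 0 counts in all 6, which allows at most 3 counts or 0.0293 to 0.0465 CPM per library. COX6B2, the testis form of subunit 6B, was measured at 0.294% ± 0.0457 of the TPM of COX6B1 in the controls (SD, n = 3). COX7A1, the muscle form of subunit 7A, reached 9.05% ± 0.375 of the TPM of COX7A2 in the controls and 6.96% ± 0.275 after induction. Its ratio was 8.65, 9.39 and 9.10% in the 3 controls and 7.21, 6.67 and 6.99% in the 3 induced libraries, which do not overlap. The 3 genes for the identical c-ring subunit of complex V were all expressed, with ATP5MC1 at 42.6% ± 2.18 and ATP5MC3 at 42.7% ± 5.49 of the TPM of ATP5MC2.

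Induction of MYCN by tetracycline was accompanied by a change past the test in 1 of the 83 genes. NDUFA6, an accessory subunit of complex I that holds the mitochondrial acyl carrier protein in place, rose, and no subunit gene fell. By edgeR's quasi-likelihood test at an adjusted p under 0.05, the shares of all 29086 tested genes were 1.02% higher and 2.38% lower, so 1 of 83 (1.20%) higher is close to the background. DESeq2 also called 1 member higher and 0 lower, where it called 3.11% of all genes higher and 4.12% lower. At an unadjusted p under 0.05, 8 members were higher and 2 lower (9.64% and 2.41%, against 8.13% and 10.6% of all genes). Those higher were 5 of complex I, 1 of complex IV and 2 of complex V, and those lower were SDHC and COX7A1, while complex III had none and DESeq2 called only NDUFA6. The 3 induced libraries lay wholly above the 3 controls for 13 members and wholly below for 5 (15.7% and 6.02%, against 11.5% and 14.7% of all genes). In bulk RNA, fewer cells of a type and less RNA per cell cannot be told apart.

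The fold changes were small. Their median over the 83 genes was 0.06 on the log2 scale, they ran from -0.46 to 0.50, and 57 (68.7%) were above 0, against 49.9% of all tested genes. The median was 0.06 without induced replicate 3 and 0.01 without control replicate 1. By complex, the medians were 0.07 in complex I, 0.04 in complex II, 0.05 in complex III, 0.02 in complex IV and 0.07 in complex V. Without control replicate 1 they were 0.02 in complex I, -0.01 in complex III, -0.02 in complex IV and 0.02 in complex V. Leaving out other single libraries took them as high as 0.16 in complex I (without control replicate 3) and 0.12 in complex III (without induced replicate 2), and complex II ran from -0.01 to 0.11 without induced replicate 2 or 3. The 95% interval lay within a 1.5-fold change in either direction for 68 genes and within a 2-fold change for 79. For these genes, larger changes than those bounds lie outside the interval, whereas changes as small as the median could not be detected gene by gene with 3 libraries per group.

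**Figure D2:**
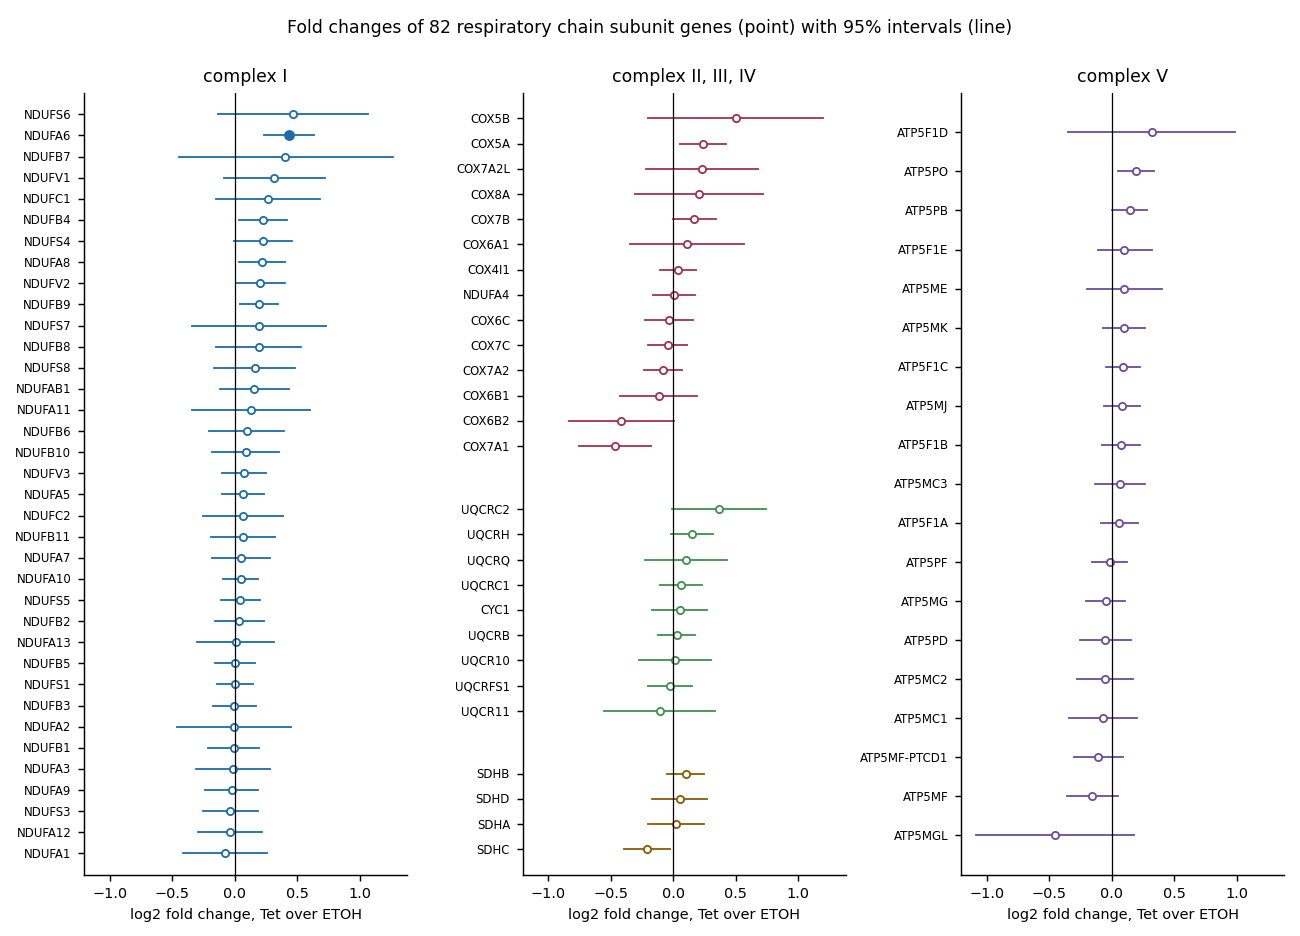
Log2 fold change (Tet over ETOH, point) with its 95% interval (line) for 82 of the 83 genes by complex, with complexes IV, III and II from top to bottom in the middle panel. The filled point, NDUFA6, is the only gene with an adjusted p under 0.05, and the widest intervals belong to NDUFB7, COX5B, ATP5F1D, ATP5MGL and NDUFS6.

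NDUFA6 lies on chromosome 22 from 42085526 to 42090884 on the minus strand and shares no exon base with another annotated gene. It had 27.1, 30.1 and 32.7 CPM in the controls and 40.5, 39.1 and 41.8 CPM in the induced libraries. All induced values were above all control values, and the gap between the groups exceeded the range within either. The fold change was 1.35 (log2 0.43, SE 0.09, edgeR adjusted p = 0.041). Over 17 alternative settings its adjusted p ran from 0.002273 to 0.210 and 10 settings kept it past the threshold. The call was lost when any library other than induced replicate 3 was left out, with log2 fold changes between 0.36 and 0.50.

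The other accessory subunits of complex I gave no call among 29. NDUFS6, which binds zinc, had the highest fold change of complex I (log2 0.47, SE 0.26, edgeR adjusted p = 0.39). It had 19.3, 25.7 and 37.1 CPM in the controls and 29.1, 48.7 and 35.6 CPM in the induced libraries, and the groups overlap. NDUFB7, a subunit of the intermembrane space, had 9.93, 23.2 and 31.3 CPM in the controls and 21.1, 33.7 and 30.5 CPM after induction, a log2 fold change of 0.41 with the largest SE of all members (0.37). Here control replicate 1 alone was far below the other 5 libraries. NDUFA8 had 29.2, 31.5 and 32.3 CPM in the controls and 36.4, 33.8 and 38.0 CPM in the induced libraries (log2 0.22, edgeR adjusted p = 0.19). NDUFB9, which like NDUFA6 binds the acyl carrier protein, had 124, 129 and 135 CPM and then 156, 143 and 146 CPM (log2 0.20, edgeR adjusted p = 0.16). NDUFAB1, the acyl carrier protein itself, had a log2 fold change of 0.16 (SE 0.12). The groups were separate but close for NDUFA8 and NDUFB9 and overlapped for NDUFAB1. The lowest fold changes of complex I were those of NDUFA1 (-0.08) and NDUFA12 (-0.04).

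The 7 core subunits of complex I, which carry the flavin and the iron-sulfur clusters, gave no call and had a median log2 fold change of 0.16, which was 0.04 without control replicate 1 and 0.24 without control replicate 3. NDUFV1, the flavin subunit that accepts electrons from NADH, had 40.7, 60.2 and 67.3 CPM in the controls and 61.8, 73.7 and 74.1 CPM after induction (log2 0.32, SE 0.18, edgeR adjusted p = 0.39). Its fold change was 0.13 without control replicate 1. NDUFS1, the largest iron-sulfur subunit, had 63.5, 62.5 and 61.9 CPM and then 65.2, 61.1 and 61.5 CPM, a log2 fold change of 0.00 with a 95% interval from -0.15 to 0.14. Its groups overlap, and it showed no difference beyond its spread.

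Complex II, succinate dehydrogenase, gave no call among 4 genes. SDHC, a membrane anchor, had 83.5, 77.0 and 74.4 CPM in the controls and 70.1, 62.4 and 70.8 CPM in the induced libraries. The groups did not overlap, but the log2 fold change of -0.21 (SE 0.08, edgeR adjusted p = 0.21) did not pass the test. SDHB, the iron-sulfur subunit, had 47.9, 48.2 and 48.3 CPM and then 51.0, 54.0 and 49.6 CPM (log2 0.10, SE 0.07). SDHA, the flavoprotein, had a log2 fold change of 0.02 (SE 0.10) and SDHD, the other anchor, 0.05 (SE 0.10). The annotated pseudogenes of SDHA together held 139% of its own count, so reads of these copies may not be fully separated and its level is uncertain.

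Complex III gave no call among 9 genes. UQCRC2, a core protein, had 56.4, 45.6 and 41.1 CPM in the controls and 64.7, 48.3 and 71.03 CPM after induction, with the highest fold change of the complex (log2 0.36, SE 0.16, edgeR adjusted p = 0.28). The groups overlap, since induced replicate 2 lay below control replicate 1, and the log2 fold change was 0.25 without induced replicate 3. UQCRH had 168, 174 and 176 CPM and then 206, 178 and 191 CPM (log2 0.15, edgeR adjusted p = 0.31). UQCRC1, the partner core protein, CYC1 and UQCRFS1, the Rieske iron-sulfur protein, had log2 fold changes of 0.06, 0.05 and -0.02, with SEs from 0.07 to 0.09. UQCR11 had the lowest value of the complex (-0.11, SE 0.19).

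Complex IV, cytochrome c oxidase, gave no call among 14 tested genes, and held both the highest and the lowest fold change of all members. COX5B, which binds zinc, had 22.4, 34.8 and 55.2 CPM in the controls and 41.1, 64.2 and 53.3 CPM after induction. The controls alone spanned more than the difference between the group means, and the log2 fold change of 0.50 (SE 0.30) had an edgeR adjusted p of 0.44. COX5A had 32.7, 32.8 and 34.7 CPM and then 39.8, 36.1 and 42.0 CPM, with separate groups (log2 0.24, SE 0.08, edgeR adjusted p = 0.17). COX4I1 had a log2 fold change of 0.04 with a 95% interval from -0.11 to 0.18. COX7A1 had 2.06, 2.13 and 2.12 CPM in the controls and 1.64, 1.40 and 1.56 CPM after induction. Its log2 fold change of -0.46 (SE 0.13) was the lowest of all members and had the lowest edgeR adjusted p after NDUFA6 (0.096). COX6B2 had 0.759, 0.976 and 0.858 CPM and then 0.732, 0.649 and 0.560 CPM (log2 -0.41, edgeR adjusted p = 0.27), and 29.1% of its exon bases are shared with another gene. COX7A2L, a factor for joining complexes III and IV, had 47.1 ± 2.53 CPM in the controls (SD, n = 3), 48.0 and 42.8 CPM in induced replicates 1 and 2 and 75.1 CPM in induced replicate 3, and its log2 fold change went from 0.23 to -0.05 without that library.

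Complex V gave no call among 19 genes. ATP5PO, the OSCP subunit at the top of the peripheral stalk, had 36.9, 37.0 and 36.6 CPM in the controls and 42.0, 42.6 and 41.6 CPM in the induced libraries. The gap between the groups was several times the range within either, yet the log2 fold change of 0.19 (SE 0.06) had an edgeR adjusted p of 0.15. ATP5PB, subunit b of the same stalk, had 70.3, 70.5 and 71.7 CPM and then 77.2, 81.0 and 76.4 CPM (log2 0.14, edgeR adjusted p = 0.26). The other stalk subunits, ATP5PD and ATP5PF, had values of -0.05 and -0.02. In the F1 head, ATP5F1A, ATP5F1B and ATP5F1C, the alpha, beta and gamma subunits, had log2 fold changes of 0.06, 0.07 and 0.09, with SEs of 0.06 to 0.07. ATP5F1D, the delta subunit, had 8.22, 16.5 and 18.8 CPM and then 14.1, 19.4 and 20.7 CPM (log2 0.32, SE 0.29), again with control replicate 1 far below the rest. The 3 c-ring genes lay between -0.07 and 0.07. ATP5MF, subunit f, had -0.16 (edgeR adjusted p = 0.40), and ATP5MGL, at 0.130 to 0.227 CPM, had -0.46 (SE 0.27). ATP5MF-PTCD1 is a readthrough gene that shares 93.4% of its exon bases with its neighbours, and its values are not independent of theirs.

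**Figure D3:**
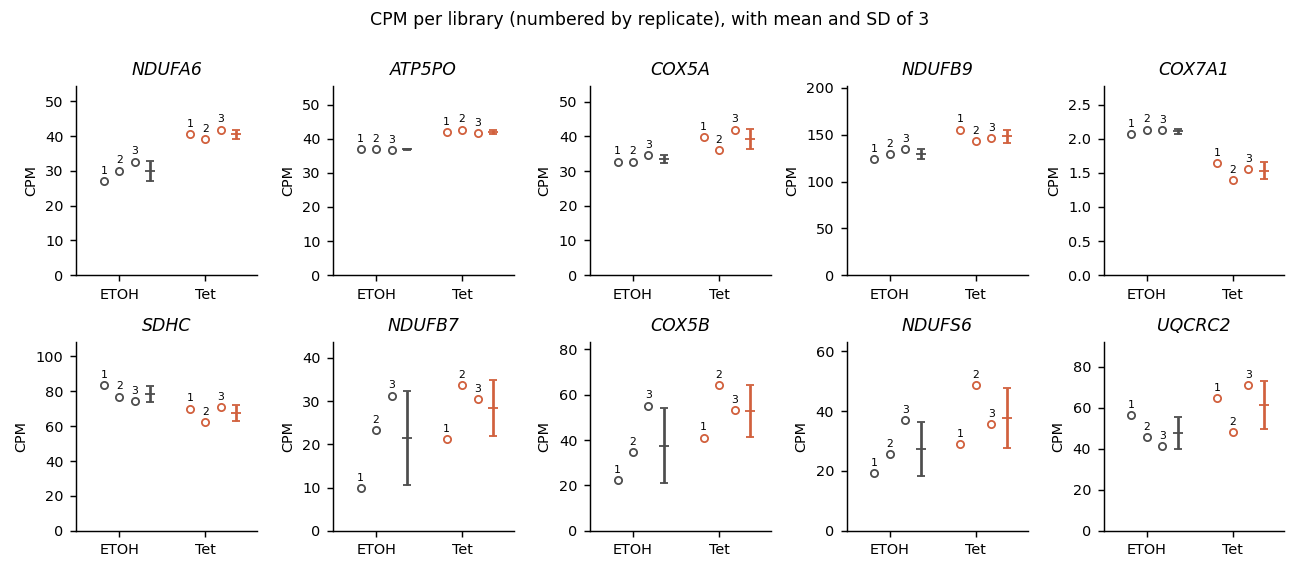
CPM of 10 subunit genes in each library, with points numbered by replicate and the mean and SD of 3 libraries beside them, each axis starting at 0. NDUFA6, ATP5PO, COX5A, NDUFB9, COX7A1 and SDHC have groups that do not overlap, while NDUFB7, COX5B and NDUFS6 spread widely within the controls, with replicate 1 lowest.

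Control replicate 1 was the lowest control for 50 of the 83 members (60.2%), against 33.3% of all tested genes. Among members this went with the GC content of the exons, which ran from 36.1 to 65.0%. The log2 ratio of control replicate 1 to replicate 3 had a Pearson r of -0.53 with GC content over 83 genes, and that to replicate 2 an r of -0.59, against -0.42 and -0.37 over all tested genes. Pairs without control replicate 1 also had negative values over the members. The ratio of control replicate 2 to replicate 3 had an r of -0.31. Among the induced libraries, r was -0.44 for replicate 1 to 3, -0.26 for 1 to 2 and -0.08 for 2 to 3. These are descriptions across genes that share the same libraries. The 42 members at or above the median GC content of 47.8% had a median log2 ratio of replicate 1 to replicate 3 of -0.22, and the 41 others one of -0.04. NDUFB7, with a GC content of 64.9%, had the lowest ratio (-1.66), followed by COX5B with -1.30 and ATP5F1D with -1.19. CYC1 and COX7A1, with similar GC contents of 64.1 and 63.5%, had ratios of only -0.16 and -0.04, so GC content alone did not order the genes.

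**Figure D4:**
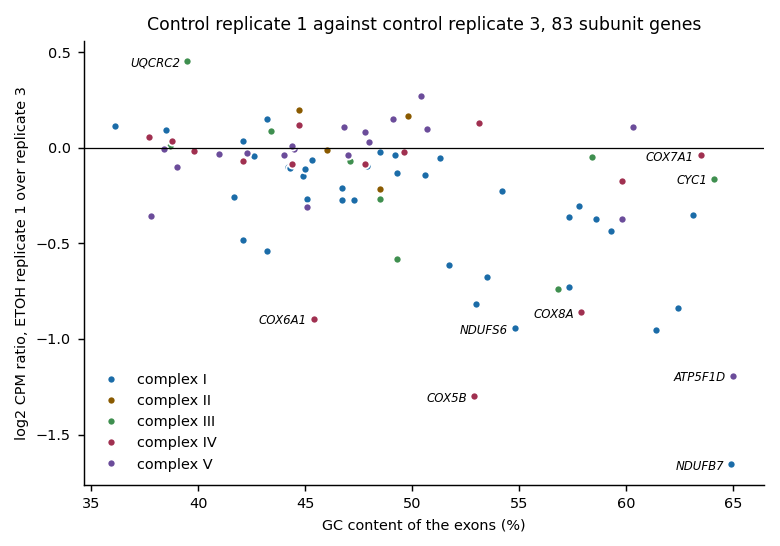
Log2 CPM ratio of ETOH replicate 1 to ETOH replicate 3 against the GC content of the exons (%) for 83 genes, coloured by complex. The ratios fall toward higher GC, reaching -1.66 at NDUFB7, while CYC1 and COX7A1 stay near 0.

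Members with wide intervals were mostly those with a low value in control replicate 1. The 16 members with an SE of 0.15 or more had a median GC content of 55.8%, and control replicate 1 was the lowest of all 6 libraries for 12 of them. They included NDUFS6, NDUFB7, NDUFV1, NDUFC1 and COX5B, and their median log2 fold change was 0.22. It was 0.02 without control replicate 1, and 0.25 after a GC correction of each library that was chosen after seeing the data. A low value in 1 library itself raises the SE. The 12 of 16 and the drop to 0.02 therefore follow in part from choosing these members by SE. Over the 83 genes, GC content and the fold change itself had an r of 0.02. What set control replicate 1 apart was not tested.

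The assembly factors, carriers and quinone enzymes that build or feed the complexes gave 1 call among 72 tested genes, with 0.05 as the median log2 fold change. NDUFAF2, which helps to assemble complex I, had 27.5, 26.6 and 27.6 CPM in the controls and 34.1, 35.1 and 37.7 CPM in the induced libraries, and rose (log2 0.39, SE 0.07, edgeR adjusted p = 0.035). No gene of the list fell by edgeR, while 10 were higher and 1 lower at an unadjusted p under 0.05, and DESeq2 called 3 higher and 0 lower. Over all tested genes the shares were 1.02% higher and 2.38% lower by edgeR, 8.13% and 10.6% at the unadjusted threshold, and 3.11% and 4.12% by DESeq2. COA6, an assembly factor of complex IV, had the highest value of the list (log2 0.53, edgeR adjusted p = 0.095) and SCO2, a copper chaperone of complex IV, the lowest (-0.29, edgeR adjusted p = 0.54). The call on NDUFAF2 was lost without any library other than induced replicate 3, as it was for NDUFA6. Among 78 genes for mitochondrial ribosomal proteins, MRPS15 rose (log2 0.44, edgeR adjusted p = 0.017), none fell, and 67 were above 0 with a median of 0.14. At an unadjusted p under 0.05, 20 of these were higher and 1 lower, and DESeq2 called 8 higher and 0 lower, beside the same shares of all genes (8.13% and 10.6%, and 3.11% and 4.12%). The call on MRPS15 was lost without any 1 of the controls or induced replicate 1. The difference from the subunit genes was not tested.

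Among 9 regulators of mitochondrial biogenesis, 1 rose and 1 fell by edgeR, which called 1.02% of all tested genes higher and 2.38% lower. PPARGC1B, a coactivator of mitochondrial genes, had 22.8, 23.5 and 22.8 CPM in the controls and 39.2, 43.9 and 31.8 CPM after induction (log2 0.73, SE 0.12, edgeR adjusted p = 0.021). Its relative PPARGC1A, at a much lower count, went from 1.40, 1.28 and 1.22 CPM to 0.570, 0.708 and 0.861 CPM (log2 -0.86, SE 0.18, edgeR adjusted p = 0.049). Over 17 alternatives, 13 kept the call on PPARGC1B and 8 that on PPARGC1A. The first was lost without any 1 of the controls or induced replicate 1, and the second without any library other than induced replicate 3. NRF1, GABPA, YY1 and TFAM, the factors whose motifs were searched and the mitochondrial transcription factor, had log2 fold changes of -0.06, -0.02, 0.08 and 0.15 with none past the test.

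Of the 13 mitochondrially encoded mRNAs of the same complexes, none rose and 2 fell by edgeR. Of all tested genes, edgeR called 1.02% higher and 2.38% lower. The log2 fold changes of the 13 mRNAs ran from -0.62 to 0.74, against -0.46 to 0.50 for the nuclear genes, and 3 of 13 were above 0. By DESeq2, 3 were called higher and 2 lower, and at an unadjusted p under 0.05 by edgeR 3 were higher and 5 lower. The shares of all tested genes were 3.11% and 4.12% by DESeq2 and 8.13% and 10.6% at the unadjusted threshold. MT-CO1, the catalytic subunit of complex IV, had 16940, 16040 and 16670 CPM in the controls and 10350, 10790 and 11140 CPM in the induced libraries (log2 -0.62, SE 0.07, edgeR adjusted p = 0.0054). MT-ND4, a proton-pumping subunit of complex I, had 23860, 22890 and 22890 CPM and then 17410, 16480 and 18990 CPM (log2 -0.40, SE 0.08, edgeR adjusted p = 0.037). The groups did not overlap for either gene. The call on MT-CO1 was lost only without control replicate 2 (adjusted p = 0.051) among the libraries, and that on MT-ND4 without any library other than induced replicate 3. MT-ND2 had 14080, 13600 and 13930 CPM and then 21220, 16330 and 32100 CPM (log2 0.74, edgeR adjusted p = 0.11), and MT-ND1 had 8136, 7976 and 8177 CPM and then 11200, 9212 and 17810 CPM (0.65, edgeR adjusted p = 0.15). For these last genes induced replicate 3 was by far the highest. Without it the log2 fold change of MT-ND2 was 0.45 (edgeR adjusted p = 0.046, and 0.049 without induced replicate 2, with 0.94), and that of MT-ND1 was 0.34 (edgeR adjusted p = 0.051). Within complex IV, MT-CO2 and MT-CO3 had values of -0.27 and -0.03, against a median of 0.02 for the nuclear genes. Reads from mitochondrial pseudogenes in the nuclear genome and from the opposite mitochondrial strand were not separated here.

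**Figure D5:**
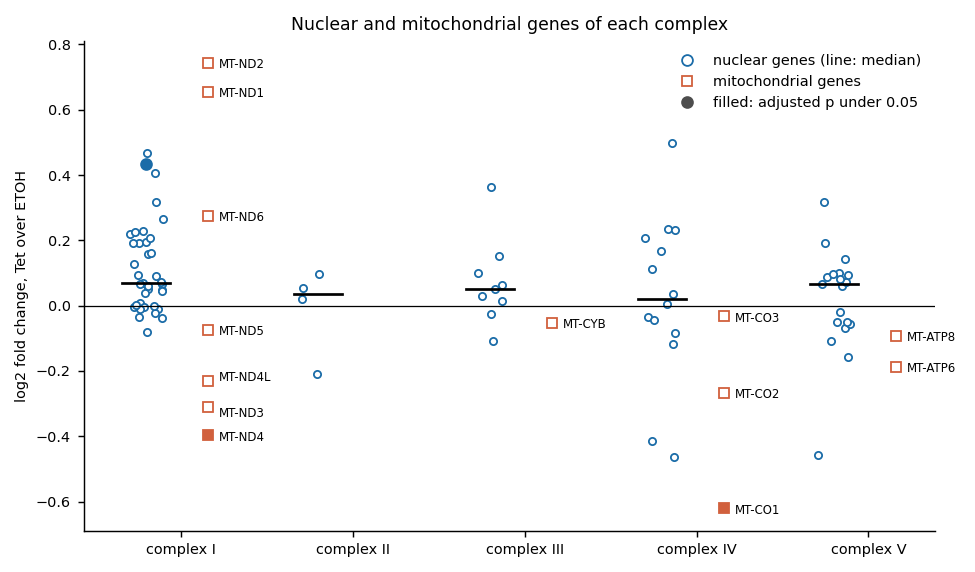
Log2 fold change (Tet over ETOH) of the 83 nuclear genes (circles, with the median as a line) and the 13 mitochondrial genes (squares) by complex, with filled symbols for an adjusted p under 0.05. The nuclear medians lie between 0.02 and 0.07, and the mitochondrial genes run from -0.62 (MT-CO1) to 0.74 (MT-ND2).

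NDUFA4L2, a paralogue of NDUFA4 that is known to respond to low oxygen, lay outside the symbol rule and had the largest fold change on these lists. It had 0.654, 0.801 and 0.769 CPM in the controls and 2.34, 1.35 and 6.78 CPM in the induced libraries (log2 2.24, SE 0.55, edgeR adjusted p = 0.075), while NDUFA4 itself had a log2 fold change of 0.01 (SE 0.07). All induced values were above all controls, and without induced replicate 3 the log2 fold change was 1.31 (edgeR adjusted p = 0.028). Across the alternatives the adjusted p of NDUFA4L2 ran from 0.018 (DESeq2) to 0.25 (edgeR without control replicate 2). Relative to NDUFA4 it remained a minor form, at 0.550% ± 0.0756 of its TPM in the controls and 2.68% ± 2.41 after induction (SD, n = 3).

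The medians of genes with and without each motif were close. On the log2 scale the 11 tested genes with CGCATGCG had a median of 0.10 and the 55 without it 0.07, and the 7 with CACGTG had 0.10 against 0.07 for the 59 without. The 21 with CCGGAAG had 0.05 against 0.09 for the 45 without, and the 9 with AAGATGGCG 0.10 against 0.07 for the 57 without. These medians are descriptions with no test.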

How the data were processed

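Libraries were assigned to ETOH (control) and Tet (MYCN-induced) from the sample titles. The deposited values are estimated counts: per the file headers, the authors counted unique STAR 2.7.1a alignments to GRCh38 over exons with featureCounts 1.6.4, dividing a pair equally among the genes it overlapped, without a strand option. The submitters' processing notes name featureCounts 1.5.1 and the study's methods a strand option, so genes overlapping on opposite strands are uncertain. In each library 31.9 to 33.4% of the values above 0 were not whole. Counts of 92 spike-in sequences were 0 and were left out.

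Counts were rounded. The 29086 genes reaching 10 counts in 3 or more libraries entered edgeR 4.0.16 (R 4.3.3; TMM, quasi-likelihood test, Benjamini-Hochberg adjustment over all tested genes, threshold 0.05). CPM are TMM-normalized, and TPM were computed from counts and exon length. Names came from GENCODE 44 (99.65% of identifiers matched). Of the members, 41 share no exon base with another gene and 19 share at least 20%. Named pseudogenes of 50 members held a median of 0.393% of the member's count, and at least 10% for 3 members. Intervals and floors cover counting error or the spread between these libraries only. The methods describe independent experiments but not how cultures were separated. Replicates differed by more than sampling noise (chi-square per gene 12.1 to 146) and each counted as 1 sample.

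The members and gene lists were chosen with earlier results of these data known. The text names members past the threshold, the 2 highest and 2 lowest fold changes and the highest level per complex, members fixed by role or isoform family, and, per list, the called genes and extremes. NDUFA8, NDUFB7, NDUFB9, NDUFAB1, NDUFA1, COX7A2L, ATP5PB, ATP5PD, ATP5PF, ATP5F1C, MRPS15, MT-ND1, MT-CO2 and MT-CO3 were added after their values were seen. Alternatives were other normalizations, DESeq2 1.42.0, count filters, the replicate block, omission of mitochondrial genes, length and GC corrections (lowess, span 0.3) and leaving out each library. The scripts were tested on simulated counts. There edgeR called 40 of 100 genes changed 1.5-fold and 85 of 100 changed 2-fold, and DESeq2 called 74 and 93. Unchanged genes called were 10 by edgeR and 44 by DESeq2. Circular RNAs were not analysed here, and values of a few genes are not reported here.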

Additional observations from a re-analysis of the deposited data

How the results depend on the processing

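Across the alternatives no subunit gene was called lower, and complexes II to V had no call in either direction. NDUFA6, and with it the count of members and of complex I genes called higher, was lost (0 called) with at least 100 counts in every library and with the replicate block, and leaving out 1 library gave 0 to 1 called. The median log2 fold change of the members ran from 0.014 (without control replicate 1) to 0.081 when 1 library was left out, and from 0.029 to 0.082 under the other settings. For assembly factors and carriers, 3 genes were called higher by DESeq2, 2 after the GC correction, 0 with upper-quartile normalization and 0 to 5 when 1 library was left out, and their median was 0.073 with the length correction, 0.016 with upper-quartile normalization and 0.012 under library size alone. The causes of these shifts were not tested, and leaving 1 library out also leaves fewer libraries. A change of sign of a gene called in neither setting was not counted as a reversal, and no called gene changed sign.

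The replicate numbers were not shown to pair the libraries. Deviations from the group means of same-numbered libraries had correlations of 0.216, -0.0188 and 0.0739. Their mean was 0.09, against -0.05 for libraries with different numbers. With the replicate block the members had 0 calls and a median of 0.063, the adjusted p was 0.052 for NDUFA6, 0.063 for NDUFAF2, 0.069 for MT-ND4 and 0.078 for PPARGC1A, and COA6 passed the threshold (0.047). The 95% intervals of 4 members reached beyond a 2-fold change.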
